A study of Mus musculus with 6 samples.

Results

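The genes described here are the insulin-like growth factor 1 gene *Igf1*, its receptor gene *Igf1r* and the binding protein genes *Igfbp2*, *Igfbp3*, *Igfbp4*, *Igfbp5*, *Igfbp6* and *Igfbp7*. They were taken by symbol, and all 8 were found among the 14865 genes listed for the mouse cochlear duct at postnatal day 8. All 8 also passed the minimum for testing, which 14455 genes passed by reaching 40 normalized reads in 1 library or more. The study compared mice that carry 1 copy of *Gfi1* replaced by the coding sequence of Cre recombinase (Gfi1cre/+) with controls that have both copies and no Cre (Gfi1+/+). All mice were labelled C57BL/6, and the labels name no other allele or agent in either group. Each genotype was sequenced in 3 libraries, and a Gfi1+/+ library held RNA of the 2 cochleae of 1 mouse whereas a Gfi1cre/+ library held pooled RNA of 6 cochleae from 3 mice. Cre stands under the control of *Gfi1* in this knock-in line, which was first made on a mixed background. Within the inner ear the study's reporter crosses place Cre activity in hair cells and in immune cells, and its methods also name recombination in other organs, among them liver, lung and kidney.

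IGF1 is a small secreted growth factor that the liver releases into the blood under growth hormone and that many tissues also make locally. It acts through IGF1R, a receptor tyrosine kinase that signals through the IRS adaptors to PI3K and AKT and through RAS to ERK. The IGF binding proteins hold most IGF outside the cell, protect it from clearance, and release it when proteases cut them. Mice and humans without IGF1 have sensorineural hearing loss, and in the mouse cochlea IGF1 is known to be needed for the postnatal maturation of the organ and the survival of its neurons.

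The promoter sequences of the 3 members with the most reads per kilobase of exon, *Igfbp5*, *Igfbp4* and *Igfbp2*, show what stands directly before these abundant transcripts. They are RefSeq sequences of GRCm38.p6, given 5′ to 3′ on the gene's own strand and ending before the annotated transcript, with bases in annotated exons left out. Capitals mark AATC, the core that GFI1 recognises, or its reverse complement GATT, and the TATA box TATAAA or its reverse complement TTTATA.
*Igfbp5* (chr1:72874885-72875065, minus strand): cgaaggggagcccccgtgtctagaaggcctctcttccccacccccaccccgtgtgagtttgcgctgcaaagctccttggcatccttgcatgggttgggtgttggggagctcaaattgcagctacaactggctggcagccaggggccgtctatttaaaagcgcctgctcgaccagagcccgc
*Igfbp4* (chr11:99041044-99041243, plus strand): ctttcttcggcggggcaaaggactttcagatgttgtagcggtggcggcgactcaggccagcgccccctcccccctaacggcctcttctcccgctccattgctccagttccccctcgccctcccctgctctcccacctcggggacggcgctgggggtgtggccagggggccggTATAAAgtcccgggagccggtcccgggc
*Igfbp2* (chr1:72824280-72824479, plus strand): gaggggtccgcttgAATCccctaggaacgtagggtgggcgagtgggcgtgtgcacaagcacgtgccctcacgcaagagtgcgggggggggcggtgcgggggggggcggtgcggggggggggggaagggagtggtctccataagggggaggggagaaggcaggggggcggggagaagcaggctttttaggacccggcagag

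The search covered 300 bases for each start, 250 before it and 50 from it on, on both strands, and in these windows no match overlapped one of the other motif. All 8 members matched a RefSeq start, *Igfbp2* matched 2, and the earlier one is shown. AATC or GATT was found in 5 of these 9 windows, those of *Igf1*, *Igf1r*, *Igfbp6* and both of *Igfbp2*, where 73.1% of 32851 windows of all genes held it. In *Igf1* the match nearest to the start began 35 bases before it. TATAAA or TTTATA was found in 2 of the 9 windows, where 13.6% of all windows held it. In *Igfbp4* the match began 28 bases before the start, and in *Igfbp6* 148 bases before it. These matches describe letters and not binding.

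The members lie on 6 chromosomes in the GENCODE annotation of GRCm38. *Igfbp2* (ENSMUSG00000039323, chromosome 1, positions 72824503 to 72852474, plus strand) and *Igfbp5* (ENSMUSG00000026185, chromosome 1, 72857932 to 72874884, minus strand) are neighbours that face each other with 5457 bases between their ends. *Igfbp3* (ENSMUSG00000020427, 7206086 to 7213923, minus strand) and *Igfbp4* (ENSMUSG00000017493, 99041244 to 99054392, plus strand) are both on chromosome 11. *Igf1* (ENSMUSG00000020053) spans 87858265 to 87937042 of chromosome 10, *Igf1r* (ENSMUSG00000005533) 67952827 to 68233668 of chromosome 7, and *Igfbp6* (ENSMUSG00000023046) 102144362 to 102149511 of chromosome 15, all on the plus strand. *Igfbp7* (ENSMUSG00000036256, 77349240 to 77408041, minus strand) is on chromosome 5, as is *Gfi1*, with 30.3 megabases between them. In *Igfbp7*, 85 exon bases, or 7.03%, are shared with *Polr2b* on the opposite strand, and the other members share no exon base with another gene. The counts cover all exons of a gene, so splice forms of *Igf1* could not be separated.

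The values are normalized reads, that is, whole reads counted on a gene divided by 1 size factor per library. Reads counted on genes came to between 13603908 and 16136022 in the Gfi1+/+ libraries and to between 17939607 and 19359753 in the Gfi1cre/+ libraries. Hair cell markers were present, with 10 of 11 listed and a summed level of 9576 to 11048 normalized reads in Gfi1+/+ and 9556 to 9854 in Gfi1cre/+. *Gfi1* itself had between 130 and 139 normalized reads in Gfi1cre/+ and between 147 and 160 in Gfi1+/+, but its count includes exons that the knock-in allele keeps. The 4 Y-linked genes *Ddx3y*, *Kdm5d*, *Eif2s3y* and *Uty* summed to 794 to 1621 normalized reads in Gfi1cre/+ and to at most 2.10 in Gfi1+/+. *Xist*, a transcript of female cells, had 2301 to 5359 normalized reads in Gfi1cre/+ and 7338 to 8138 in Gfi1+/+. The Gfi1cre/+ pools were thus of mixed sex, and sex and genotype cannot be told apart in any comparison below. Gfi1+/+ replicate 1 stood apart from the other 5 libraries on the first principal component and had 8727 normalized reads summed over the 7 neuron markers, against 1110 to 2698 in the others. Of these 7 genes limma called 4 lower in Gfi1cre/+ at an unadjusted p-value under 0.05, where 2.02% of all genes were called lower. The part of these genes in the members' values was not tested. The difference of every member is therefore also given without Gfi1+/+ replicate 1. In bulk tissue, fewer cells of a type and less RNA per cell cannot be told apart.

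To compare the members with each other, normalized reads were divided by the kilobases of the gene's exons. The binding proteins dominated the family (plot of levels per kilobase). *Igfbp5*, whose protein is abundant in bone and connective tissue, had the highest level, with 10673 ± 792 normalized reads per kb (SD, n = 6 libraries). It was followed by *Igfbp4* with 6226 ± 377 and *Igfbp2* with 5987 ± 600.3, whose ranges overlapped and of which *Igfbp4* was the higher in 4 of 6 libraries. *Igfbp7*, a relative with low affinity for IGF that is known from blood vessel walls, had 1872 ± 130 (SD, n = 6), between *Igfbp2* and *Igf1*. The ligand *Igf1* had 829.7 ± 25.2, *Igfbp3* 659.6 ± 37.4 and *Igfbp6* 388 ± 48.9 normalized reads per kb (SD, n = 6). The receptor *Igf1r* was the lowest, with 39.8 ± 3.66, a level 9.74 times below that of *Igfbp6*. The ranges over the 6 libraries lay apart between 6 of the 7 neighbours in this order. Per kilobase of the longest transcript, *Igfbp2* came before *Igfbp4*, and *Igfbp5* was above *Igfbp2* in 5 of 6 libraries, with ranges that overlapped. *Igf1r* was then 6.62 times below *Igfbp6*, and *Igf1* stood at 1165, so ratios between genes depend on the length used.

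**Figure D1:**
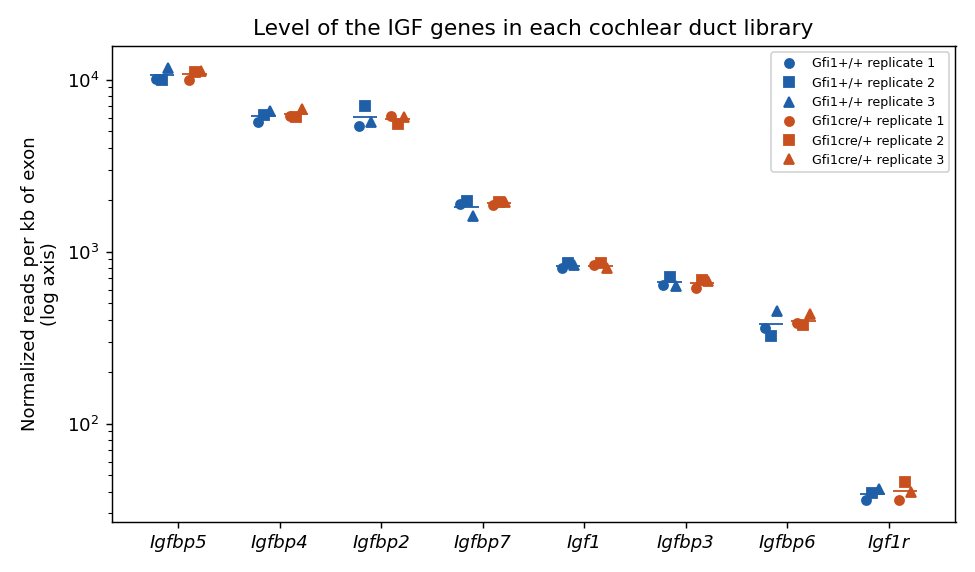
Normalized reads per kilobase of exon (log axis) of the 8 genes in order of their mean level, with 1 point per library and a short line at the mean of each genotype, blue for Gfi1+/+ and orange for Gfi1cre/+. The levels run from 39.8 for *Igf1r* to 10673 for *Igfbp5*, and the points of the genotypes overlap in every gene.

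Among the 14791 genes with an exon length, *Igfbp5* ranked 61st per kilobase, *Igfbp4* 118th and *Igfbp2* 124th. By normalized reads alone *Igfbp5* was the 13th of the 14865 genes, and the 8 members together took between 0.647% and 0.726% of all normalized reads of a library. *Igf1* ranked 1047th per kilobase and *Igf1r* 11013th. The low members rest on fewer reads, with 325 to 511 recovered reads per library for *Igfbp6* and 489 to 861 for *Igf1r*, against 48944 to 75071 for *Igfbp5*.

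To ask whether replacing 1 copy of *Gfi1* changed the IGF genes, the genotypes were compared with limma on log2(normalized reads + 1) over all 14455 genes tested, two-sided, with Benjamini-Hochberg adjustment. None of the 8 members passed the test. At an unadjusted p-value under 0.05 limma called 0 of 8, where 3.04% of all genes were called, and at an adjusted p-value under 0.05 it called 0 of 8, where 0.0277% of all genes were called. edgeR and DESeq2 on the recovered reads each called 0 of 8 at both thresholds. The Gfi1cre/+ and Gfi1+/+ libraries overlapped in all 8 genes, where their ranges lay apart in 7.52% of all genes, with Gfi1cre/+ higher in 3.45% and lower in 4.07%. The members' log2 differences, Gfi1cre/+ minus Gfi1+/+, were above 0 in 5 genes and below 0 in 3, and their median was 0.034, beside a median of -0.00012 over all genes tested. The 95% intervals of the 8 differences together reached from -0.24 to 0.36, which is from 0.844-fold to 1.28-fold, so that a change of 2-fold lay outside each of them. This holds for the whole duct, and a larger change confined to a small part of its cells, such as hair cells, could go unseen.

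*Igf1*, the ligand, stood at 7940.5, 8456 and 8258 normalized reads in replicates 1, 2 and 3 of Gfi1+/+. In the same order, it stood at 8270, 8484 and 7898 in Gfi1cre/+. The highest and the lowest of the 6 libraries were both Gfi1cre/+, and the highest was only 1.07 times the lowest. The means were 8218 ± 259.9 in Gfi1+/+ and 8217 ± 296 in Gfi1cre/+ (SD, n = 3). The log2 difference was -0.00030 (standard error 0.058, 95% interval -0.13 to 0.13, adjusted p = 0.999 from limma), and without Gfi1+/+ replicate 1 it was -0.025.

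*Igf1r*, the receptor tyrosine kinase for IGF1, had 604, 665 and 704 normalized reads in Gfi1+/+ and 603, 764 and 671 in Gfi1cre/+ replicates 1, 2 and 3. Replicate 1 of each genotype was low, replicate 2 of Gfi1cre/+ was the highest, and the genotypes overlapped. Its log2 difference was 0.044 (standard error 0.095, 95% interval -0.17 to 0.26, adjusted p = 0.999 from limma). Without Gfi1+/+ replicate 1 it was -0.016. The level of *Igf1* per kilobase was 21.3 ± 1.23 times that of *Igf1r* in Gfi1+/+ and 20.7 ± 2.30 times in Gfi1cre/+ (SD, n = 3, exact permutation test, two-sided p = 0.8, where 3 libraries against 3 cannot go below 0.1).

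*Igfbp5*, the most abundant member, had 60413, 59445 and 70569.7 normalized reads in Gfi1+/+ and 59952, 66639 and 67604 in Gfi1cre/+ replicates 1, 2 and 3. Gfi1+/+ held both the highest and the lowest library. The means were 63476 ± 6162 and 64732 ± 4167 (SD, n = 3), with a log2 difference of 0.031 (standard error 0.10, 95% interval -0.20 to 0.26, adjusted p = 0.999 from limma). It was -0.0029 without Gfi1+/+ replicate 1.

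*Igfbp4*, which binds IGF and is freed from it by the protease PAPPA, had 24993, 27349 and 29089 normalized reads in Gfi1+/+ and 27009, 26919.9 and 29609 in Gfi1cre/+ replicates 1, 2 and 3. Gfi1+/+ replicate 1 was the lowest library and replicate 3 of each genotype the highest of its group. The log2 difference was 0.038 (standard error 0.082, 95% interval -0.15 to 0.22, adjusted p = 0.999 from limma), and -0.020 without Gfi1+/+ replicate 1.

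*Igfbp2*, a binding protein of fetal and early postnatal tissues, had 9967, 13006 and 10499.7 normalized reads in Gfi1+/+ and 11397, 10223 and 11252 in Gfi1cre/+ replicates 1, 2 and 3. Gfi1+/+ replicate 2 stood above the other 5 libraries, and the Gfi1cre/+ libraries lay inside the Gfi1+/+ range. The means were 11158 ± 1623 and 10957 ± 640.5 (SD, n = 3), and the log2 difference was -0.018 (standard error 0.10, 95% interval -0.24 to 0.21, adjusted p = 0.999 from limma). It was -0.095 without Gfi1+/+ replicate 1 and turned to 0.097 without Gfi1+/+ replicate 2.

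*Igfbp3*, the main carrier of IGF in blood, had 2012, 2228 and 1969 normalized reads in Gfi1+/+ and 1918, 2137 and 2124 in Gfi1cre/+ replicates 1, 2 and 3. Its groups overlapped, and the log2 difference was -0.0068 (standard error 0.069, 95% interval -0.16 to 0.15, adjusted p = 0.999 from limma). Without Gfi1+/+ replicate 1 it was -0.026.

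*Igfbp6*, which prefers IGF2 over IGF1, varied most among the 8 genes. It had 401, 357 and 505 normalized reads in Gfi1+/+ and 428, 414 and 482 in Gfi1cre/+ replicates 1, 2 and 3, so that the highest library was 1.42 times the lowest and both were Gfi1+/+. The log2 difference was 0.079 (standard error 0.12, 95% interval -0.20 to 0.36, adjusted p = 0.999 from limma). It was 0.052 without Gfi1+/+ replicate 1. Without Gfi1+/+ replicate 3 it was 0.22, with an unadjusted p-value of 0.037 and an adjusted p of 0.274 from limma, in a fit where 16.2% of all genes had an unadjusted p-value under 0.05.

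*Igfbp7* had 2279, 2384 and 1958 normalized reads in Gfi1+/+ and 2260.3, 2356 and 2341 in Gfi1cre/+ replicates 1, 2 and 3. Gfi1+/+ replicate 3 was low and the other 5 libraries lay close together. The log2 difference was 0.076 (standard error 0.075, 95% interval -0.094 to 0.25, adjusted p = 0.999 from limma), and its p-value of 0.337 was the lowest of the 8 before adjustment. Without Gfi1+/+ replicate 1 the difference was 0.10, and without Gfi1+/+ replicate 3 it was -0.0075.

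**Figure D2:**
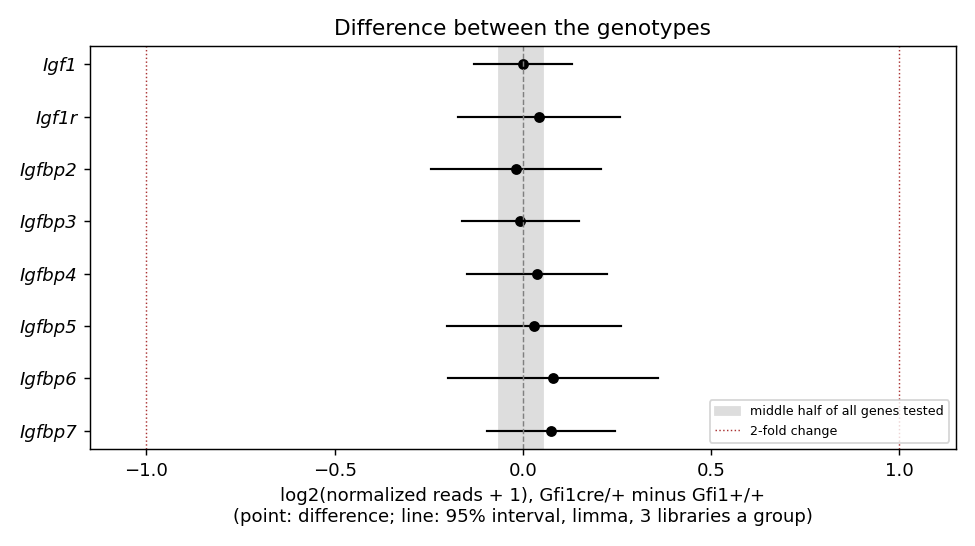
Difference in log2(normalized reads + 1), Gfi1cre/+ minus Gfi1+/+, for the 8 genes (points) with its 95% interval from limma (lines; 3 libraries per genotype). Grey marks the span from the lower to the upper quartile of all genes tested, -0.063 to 0.055, and dotted lines a 2-fold change, and every interval includes 0 and stops short of the dotted lines.

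The members did not vary between libraries as a block (plot of deviations). *Igfbp4*, *Igfbp5* and *Igfbp6* had their 2 highest libraries in Gfi1+/+ replicate 3 and Gfi1cre/+ replicate 3. For *Igfbp6* the deviations from the mean over 6 libraries were 0.24 and 0.17 on the log2 scale there. *Igfbp7* had its lowest library in Gfi1+/+ replicate 3, at -0.21. *Igfbp2* was at 0.24 in Gfi1+/+ replicate 2, where its neighbour *Igfbp5* was at -0.11 and *Igfbp6* at -0.26. These patterns were picked out after the values had been seen.

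**Figure D3:**
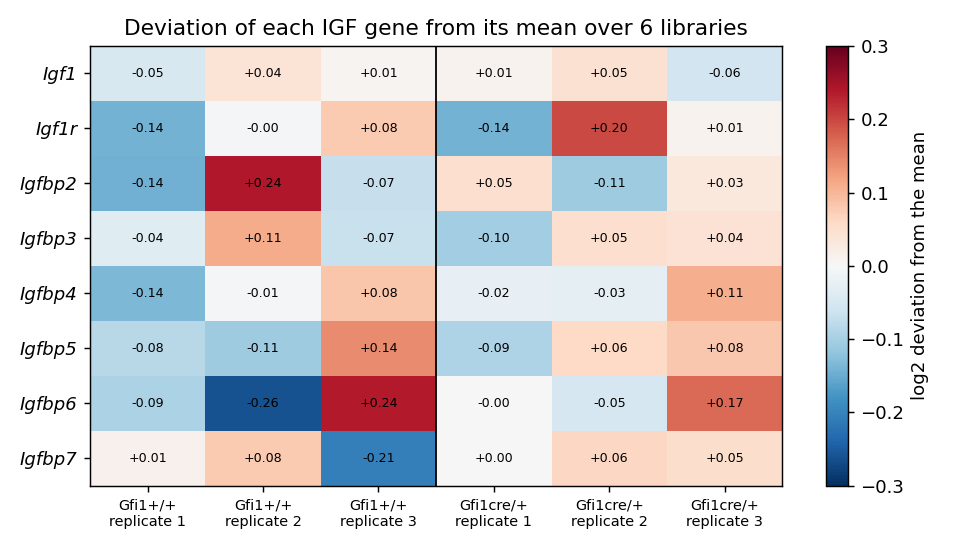
Deviation of log2(normalized reads + 1) of each gene from its mean over the 6 libraries, printed in each cell and coloured from blue (lower) to red (higher), with a line between the genotypes. *Igfbp6* and *Igfbp2* have the largest deviations, from -0.26 to 0.24, and those of *Igf1* stay between -0.057 and 0.047.

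The summed level of 8 bone and cartilage markers, all of them listed and none at 0 in a library, was also highest in Gfi1+/+ replicate 3, with Gfi1cre/+ replicate 3 next. It ran from 297031 to 419561 normalized reads in Gfi1+/+ and from 358811 to 384223 in Gfi1cre/+. The median log2 difference of these 8 genes was 0.24. At an unadjusted p-value under 0.05 limma called 0 of the 8, where 3.04% of all genes were called. The 8 fibrocyte and mesenchyme markers, again all listed and none at 0, had the same 2 libraries on top, and summed to between 161101 and 195182 normalized reads in Gfi1+/+ and to between 181357 and 189697 in Gfi1cre/+. The same 2 libraries were also on top for the summed level of the 9 endothelium and pericyte markers. Gfi1cre/+ replicate 3 had 17548 normalized reads there and Gfi1+/+ replicate 3 had 17209. The part of all these marker genes in the levels of *Igfbp4*, *Igfbp5* and *Igfbp6* was not tested. The spread of the members was larger in Gfi1+/+ in 6 of the 8 genes. The same held for 73.1% of all genes that averaged 200 normalized reads or more. A Gfi1+/+ library is 1 mouse and a Gfi1cre/+ library a pool of 3, and the part of pooling was not tested. The median SD of log2(normalized reads + 1) was 0.12 in Gfi1+/+ and 0.087 in Gfi1cre/+ over the members, and 0.12 and 0.074 over all genes tested. Over the genes that averaged 200 normalized reads or more, as all 8 members did, it was lower, at 0.0996 and 0.0597.

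Because a share within a library does not depend on its size factor, the make-up of the binding protein transcripts was compared as well (plot of shares). *Igfbp5* made up 41.9%, 37.9% and 43.97% of the summed reads per kilobase of the 6 *Igfbp* genes in Gfi1+/+ replicates 1, 2 and 3. In Gfi1cre/+ replicates 1, 2 and 3 it made up 39.7%, 43.1% and 41.5%. The mean shares were 41.2% ± 3.10 and 41.5% ± 1.71 (SD, n = 3). *Igfbp4* made up 23.97% ± 0.587 in Gfi1+/+ and 24.3% ± 0.528 in Gfi1cre/+, and *Igfbp2* 23.6% ± 2.99 and 22.8% ± 1.55. *Igfbp7*, *Igfbp3* and *Igfbp6* together made up the rest, with *Igfbp7* between 6.06% and 7.85%. Over the 6 shares the exact permutation test gave two-sided p-values from 0.6 to 1, each 1 after Benjamini-Hochberg adjustment, where 0.1 is the smallest that the design allows. The summed level of *Igfbp2* to *Igfbp6* per kilobase was 28.7 ± 1.30 times that of *Igf1* in Gfi1+/+ and 29.1 ± 2.16 times in Gfi1cre/+ (SD, n = 3, exact permutation test, two-sided p = 0.8).

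**Figure D4:**
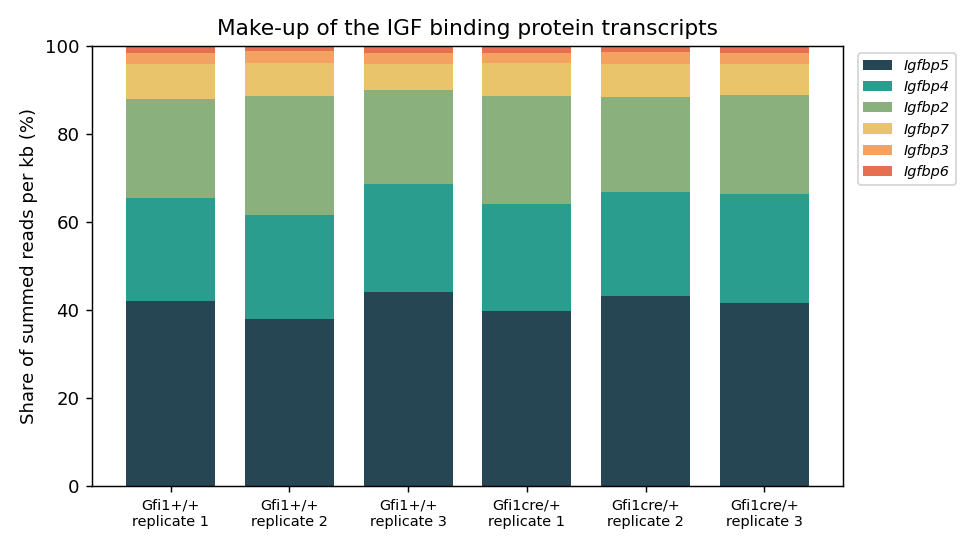
Share of each *Igfbp* gene in the summed normalized reads per kilobase of the 6 genes, in percent, with 1 bar per library. *Igfbp5*, *Igfbp4* and *Igfbp2* fill most of every bar, and the share of *Igfbp5* runs from 37.9% to 43.97%, both ends in Gfi1+/+.

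The other genes of the pathway were taken as a list of 54 genes, of which 51 were listed and tested. *Igfbp1*, *Ins2* and *Irs4* were not among the listed genes. At an unadjusted p-value under 0.05 limma called 0 of the 51 as higher and 0 as lower in Gfi1cre/+, where 1.02% and 2.02% of all genes were called, and 0 had an adjusted p-value under 0.05. edgeR and DESeq2 also called 0 at an adjusted p-value under 0.05. The log2 differences were above 0 in 33 genes and below 0 in 18, with a median of 0.020, beside -0.00012 over all genes tested.

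By role, 4 other ligands and receptors were tested. *Igf2*, the imprinted fetal growth factor, had 11110.3, 14897 and 11968 normalized reads in Gfi1+/+ and 12391, 13355 and 12616 in Gfi1cre/+ replicates 1, 2 and 3, with a log2 difference of 0.025 (standard error 0.10, adjusted p = 0.999 from limma). Of its exon bases 64.5% are shared with other annotated genes, mainly *Gm49394*, so its count is uncertain. Its level per kilobase was 2.66 ± 0.340 times that of *Igf1* in Gfi1+/+ and 2.69 ± 0.0896 times in Gfi1cre/+ (SD, n = 3, exact permutation test, two-sided p = 0.9). *Igf2r*, which clears IGF2, had 2488 ± 161 normalized reads in Gfi1+/+ and 2652 ± 159 in Gfi1cre/+, a log2 difference of 0.092. *Insr*, the insulin receptor, had 1043 ± 63.3 and 1079.6 ± 61.7, a log2 difference of 0.050 (SD, n = 3; adjusted p = 0.999 for both from limma).

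Among the 8 other binding proteins and partners tested, which include the proteases *Pappa* and *Pappa2*, the log2 differences ran from -0.22 to 0.065 and 6 were below 0. The lowest, *Pappa2*, had 95.2 normalized reads on average in Gfi1+/+ and 81.6 in Gfi1cre/+ (adjusted p = 0.999 from limma). The 11 adaptors and feedback genes lay between -0.049 and 0.11 and the 20 genes of the PI3K, AKT and mTOR arm between -0.057 and 0.11. The 8 genes of the RAS and ERK arm had a median of 0.014. Of the 20 genes of the PI3K arm 15 were above 0, and 0 passed the test. The median of the arm was 0.028, inside the span from the lower to the upper quartile of all genes tested, -0.063 to 0.055.

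The genes with the most similar course over the 6 libraries were found by the root mean square difference of the log2 values after centring each gene on its mean, among 10364 other genes that averaged 200 normalized reads or more. The 3 nearest to *Igf1* were *Pi4kb*, *Atrx* and *Usp3*, at 0.0084 to 0.013, where the median of all these genes was 0.089. *Poc1b*, *Phlpp2* and *Man2a1* were nearest to *Igf1r*, at 0.037 to 0.038. *Igfbp2* had *Grwd1*, *Swsap1* and *Phgdh*, at 0.033 to 0.045. These distances describe 6 libraries and no shared regulation. For *Igfbp3* they were *Pde12*, *Atr* and *Bloc1s6*, from 0.017 to 0.019. *Igfbp4* was closest to *Dennd2a*, *Mfhas1* and *Lad1*, from 0.015 to 0.018, and *Igfbp5* to *Prdm2*, *Dab2ip* and *Itpkb*, from 0.014 to 0.018. *Igfbp6* was closest to *Wif1*, *Heyl* and *Zrsr1*, from 0.021 to 0.031, and *Igfbp7* to *Ift22*, *Adck3* and *Gm10232*, from 0.021 to 0.025. No member was among the 3 nearest of another member, which says little where 3 of 10364 genes are taken. The closest pair of members was *Igfbp4* and *Igfbp5*, at 0.070, where the median of all these genes was 0.11 from *Igfbp4* and 0.12 from *Igfbp5*. The genomic neighbours *Igfbp2* and *Igfbp5* were at 0.19, where the median from *Igfbp2* was 0.15.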

How the data were processed

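Cochlear duct RNA was sequenced in 6 libraries, 3 per genotype. The authors prepared libraries with the TruSeq RNA kit, aligned the reads to mm10 with Tophat, took uniquely mapped reads into HTSeq-count and listed genes with 40 reads or more. Versions, annotation and strand setting are not given in the sources used here. The deposited signal, which the methods describe as quantile-normalized, was in each library a whole multiple of 1 step up to rounding (100% of values within 0.006 normalized reads), and the factors equal median-of-ratios size factors, so each value is a count divided by a size factor. The genotype and the replicate number in a column's name gave its sample.

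The deposited values were tested on the log2 scale after adding 1, by limma 3.58.1 (R 4.3.3) with no term but genotype, eBayes with a trend, and Benjamini-Hochberg adjustment. This scale understates fold changes of genes with few reads. edgeR 4.0.16 and DESeq2 1.42.0 were run on recovered reads. Exact permutation tests were two-sided over 6 libraries. Exon lengths and positions came from GENCODE M21, which matched 14791 of 14865 identifiers. The limma step was tested on simulated counts with known changes. Intervals cover these libraries only. Each Gfi1+/+ library is 1 animal and each Gfi1cre/+ library a pool of 3.

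The 8 members, the pathway list and the marker lists were chosen with earlier results of these data known. Named were the 8 members, *Igf2*, *Igf2r* and *Insr*, up to 4 pathway genes per list at an unadjusted p-value under 0.05 (there were 0), and the 3 genes most alike each member. *Pappa2* and genes that passed in an alternative were named after their values were seen. The summed levels of supporting cell, endothelium and pericyte, macrophage, Schwann cell and stria vascularis genes overlapped between the genotypes, as did that of the neuron genes. At an unadjusted p-value under 0.05 limma called 4 of 7 neuron genes lower in Gfi1cre/+ (median log2 difference -1.31), 2 of 9 endothelium and pericyte genes and 1 of 6 stria vascularis genes higher, and 0 of the 5 Schwann cell genes (median -0.91), 6 supporting cell and 9 macrophage genes. The sums of 4 erythroid genes did not overlap, at 415 to 662 normalized reads in Gfi1+/+ and 701 to 1735 in Gfi1cre/+, and 3 of the 4 were called higher. At the same threshold 1.02% of all genes were called higher and 2.02% lower in Gfi1cre/+. Of 5 skeletal muscle genes 1 was listed, at 15.7 to 26.4 normalized reads. Protein sequences were not used here, and 1 pathway gene is not reported by name.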

Additional observations from a re-analysis of the deposited data

How the results depend on the processing

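The 8 genes were recomputed under 17 alternatives each: pseudocounts of 0.1 and 10, no minimum, a mean of at least 200 normalized reads, quantile normalization, TMM factors, limma without a trend or with robust variances, edgeR, DESeq2, each library left out, and the replicate number as a block. No gene passed an adjusted p-value of 0.05 in any of them, and the count at an unadjusted p-value under 0.05 was 0 except without Gfi1+/+ replicate 3, where it was 1 (*Igfbp6*). The count over the pathway list ran from 0 to 5 with a library left out, and the 5, without Gfi1+/+ replicate 3, were *Foxo3*, *Ptpn11*, *Stat5b*, *Pik3cb* and *Akt2*, all above 0, of 51 tested, in a fit that called 16.2% of all genes at this threshold; the cause was not tested. Differences this close to 0 changed sign readily. With 1 library left out they ran from -0.025 to 0.028 for *Igf1*, from -0.044 to 0.13 for *Igf1r*, from -0.095 to 0.097 for *Igfbp2*, from -0.042 to 0.047 for *Igfbp3*, from -0.020 to 0.090 for *Igfbp4*, from -0.015 to 0.11 for *Igfbp5*, from -0.032 to 0.22 for *Igfbp6* and from -0.0075 to 0.13 for *Igfbp7*. *Igfbp4* was at -0.011 with quantile normalization, and *Igf1* at 0.00019 with TMM factors and at 0.00025 in edgeR.

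With the replicate number as a block the count stayed 0, and the correlations between same-numbered libraries (-0.094, 0.11 and -0.033 over genes) do not show that the numbers pair the samples.

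Per kilobase of the longest transcript instead of all exons, *Igfbp2* came before *Igfbp4* and 5 of 7 neighbours in the order lay apart, with *Igfbp5* and *Igfbp2* no longer among them (in Gfi1+/+ replicate 2 their shares were 32.8% and 32.9%). The mean shares over the 6 libraries were then 36.3% for *Igfbp5*, 28.7% for *Igfbp2*, 6.42% for *Igfbp7*, 2.90% for *Igfbp3* and 1.32% for *Igfbp6*. The length used went from 1847 to 1307 bases in *Igfbp2* and stayed the same in *Igfbp5* and *Igfbp6*. The shares of *Igfbp5* and *Igfbp6* thus moved only through the sum. *Igfbp6* and *Igf1r* had the fewest recovered reads. The standard errors of their differences were 0.12 and 0.095, beside 0.10 for *Igfbp5*, and the part of depth was not tested.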
